A study of Mus musculus with 12 samples.

Results

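The genes encoded by mitochondrial DNA were described across 4 treatments of tumourspheres from 3 mouse mammary tumour cell lines. They were taken as every gene of the count table whose symbol starts with mt- in lower case, which gave 37 genes of 55573. These are 13 protein-coding genes, 2 ribosomal RNA (rRNA) genes and 22 transfer RNA (tRNA) genes, and all of them lie on chromosome M of build mm10. The label fits the annotation, since 37 of the 37 identifiers matched a chromosome M gene of the GENCODE annotation.

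A1005, A1129 and A1471 are independent lines, each established from a mammary tumour of spindle-shaped (spindloid) pathology in MMTV-Metmt;Trp53fl/+;Cre mice. These mice carry a mutant Met receptor driven by the mouse mammary tumour virus promoter, and Cre removes a floxed allele of Trp53. All 12 libraries, vehicle controls included, share this genotype. Spheres of each line were exposed for 24 h to DMSO as the vehicle, to 1 µM Crizotinib (a Met inhibitor), to 1 µM PD173074 (an inhibitor of FGF receptors) or to both inhibitors, here called the combination. Each treatment therefore had 1 library per line and n = 3, and a spread between replicates is a spread between lines.

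Mitochondrial DNA is a small circular genome that is transcribed from both strands into long precursors. The tRNAs that lie between the other genes are cut out, which releases the messenger RNAs and rRNAs. The messenger RNAs encode core membrane subunits of respiratory complexes I, III and IV and of the ATP synthase, while every factor that copies, transcribes and translates this genome is imported from the cytosol. Most genes, here called heavy-strand genes, are transcribed from the heavy strand, whereas mt-Nd6 and several tRNAs come from the light strand. Fragments of mitochondrial DNA have also been inserted into the nuclear chromosomes during evolution, where some are annotated as pseudogenes.

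Of the 37 genes, 28 were heavy-strand genes and 9 were light-strand genes. Totals of all genes ranged from 13031492 to 17750476 counts per library, and the mitochondrially encoded genes held 1.21% to 2.52% of them. Markers of the labelled tumour cell were present in every library (Vim at 30314 counts or more, Met at 29570 or more), the endothelial and adipocyte markers had at most 9 counts, and of the 3 basal markers Krt5 was at 0 in all 12 libraries, Krt14 had 0 to 11 counts and Trp63 had 0 to 229. The luminal markers Krt8 and Krt18 had 17 to 611 and 53 to 748 counts, while Epcam had 3 to 29 and Cdh1 0 to 9. Of the leukocyte markers Ptprc had 0 to 339 counts, Cd68 62 to 439 and Cd3e 0 to 2. Of the muscle markers Actc1 was at 0, Myh1 had 4 to 58 counts and Myh6 0 to 2. Levels are given as CPM, that is, counts scaled to library size with TMM factors, and the summed leukocyte markers spanned 4.34 to 31.3 CPM in DMSO and 8.22 to 42.0 in the combination. Genes that ERK signalling induces, listed with earlier results of these data known, served as a check of the combination label only. With each single inhibitor 0 of the 6 passed an adjusted p of 0.05 (edgeR). Their median log2 fold change was -1.03 with PD173074 and 0.14 with Crizotinib. In a fit that holds the line constant, 4 of the 6 fell with PD173074, beside 0.52% of all genes. In the combination against DMSO 6 of 6 such genes fell with adjusted p of 0.00384 or less (edgeR), beside 8.28% of all genes lower. They included Ccnd1 (log2 fold change -5.29), Dusp6 (-5.03), Etv5 (-4.99) and Spry4, which went from 17.7 ± 7.39 CPM to 0.271 ± 0.309 (SD, n = 3), close to the lowest countable level.

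Read counts were spread very unevenly over the 37 genes. Of the 15 protein-coding and rRNA genes, 9 had 267 to 127812 counts in every library and together held 99.9% of all mitochondrial counts. mt-Co1, the catalytic core subunit of complex IV, alone held 32.1%, followed by mt-Cytb of complex III with 15.99%, mt-Nd1 of complex I with 14.4% and the large-subunit rRNA mt-Rnr2 with 13.5%. The other 6 protein-coding genes, mt-Co2, mt-Atp8, mt-Atp6, mt-Co3, mt-Nd3 and mt-Nd4l, had 0 to 126 counts per library and together held 0.0578%. These 6 are neighbours on chromosome M, in one stretch between mt-Co1 and mt-Nd4.

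Those 6 genes were set beside the nuclear transcripts that carry the same sequence. For each gene, the bases that fall in a run of at least 75 bases identical to a transcript of a nuclear chromosome were counted in the GENCODE transcripts of the same build. For 5 of the 6 genes nearly the whole length was shared, at 99.6% for mt-Co2, 99.6% for mt-Atp6, 99.9% for mt-Co3, 98.3% for mt-Nd3 and 99.0% for mt-Nd4l. The copies are the unprocessed pseudogenes Gm28661, Gm10925, Gm28437, Gm28438 and Gm10222 on chromosome 1. With Gm29216 and Gm28439, which copy parts of mt-Co1 and mt-Nd4, they form a block of 7 pseudogenes at chr1:24611535-24616197 on the minus strand. The first 60 bases of mt-Co2 (chrM:7013-7072) and of its copy (chr1:24615506-24615565, minus strand) are shown because they let a reader see that a read from one could not be told from a read from the other, with the start codon in capitals:
mt-Co2: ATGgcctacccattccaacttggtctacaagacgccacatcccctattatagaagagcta
Gm28661: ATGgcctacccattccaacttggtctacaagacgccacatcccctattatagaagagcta

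The pseudogenes themselves also had few counts. Gm28661 had 23 to 41 counts per library, Gm28437 had 18 to 59, Gm10925 had 17 to 46, Gm28438 had 15 to 41 and Gm10222 had 0 to 5. All 7 pseudogenes of the block together had 126 to 257 counts per library. Of the 7, 6 had enough counts to be tested. None of those passed in the combination against DMSO (adjusted p 0.199 or more, edgeR), beside 14.4% of all genes. In a fit that holds the line constant, Gm28438 alone of these passed (0.66 on the log2 scale, adjusted p 0.0457), beside 54.8% of all genes. No ratio between them and the other genes is given here. The part of the shared sequence in these low counts was not tested.

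mt-Atp8, a small subunit of the ATP synthase, was the exception among the 6. It had 3 to 14 counts per library but shared no run of 75 bases with any annotated nuclear transcript. Its neighbours give a further measurement. Between the last copied base of mt-Co2 and the first base of mt-Atp6 lie 233 bases of chromosome M (chrM:7694-7926), which hold most of mt-Atp8, and between the matching pseudogenes lie 233 bases of chromosome 1 (chr1:24614652-24614884). The sequence of that interval was not compared here. mt-Atp8 also overlaps mt-Atp6 by 43 bases, in another reading frame, shown in capitals within chrM:7912-7984:
mt-Atp8 and mt-Atp6: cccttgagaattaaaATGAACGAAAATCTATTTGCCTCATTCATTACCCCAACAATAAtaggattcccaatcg

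The edges of the chromosome 1 block fall inside genes that were well counted. The last 479 bases of mt-Co1 were identical to Gm29216, and the first 876 of the 1378 bases of mt-Nd4, a complex I subunit, were identical to Gm28439. With a further pseudogene on chromosome 2, Gm13340, 71.5% of mt-Co1 lay in shared runs and 441 bases did not, against 63.6% and 502 bases for mt-Nd4. mt-Nd2 (12.4%) and mt-Nd5 (9.70%) shared little, and mt-Nd1, mt-Cytb, mt-Nd6 and both rRNAs shared no run of 75 bases. With runs of 50 bases the values were 24.3% for mt-Nd5 and 4.11% for mt-Rnr2. The bases at both edges are shown, with those identical to the pseudogene in capitals (mt-Co1 at chrM:6364-6423, mt-Nd4 at chrM:11013-11072):
mt-Co1: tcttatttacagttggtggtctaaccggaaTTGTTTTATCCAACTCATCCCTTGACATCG
mt-Nd4: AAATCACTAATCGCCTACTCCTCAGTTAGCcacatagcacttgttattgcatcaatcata

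**Figure D1:**
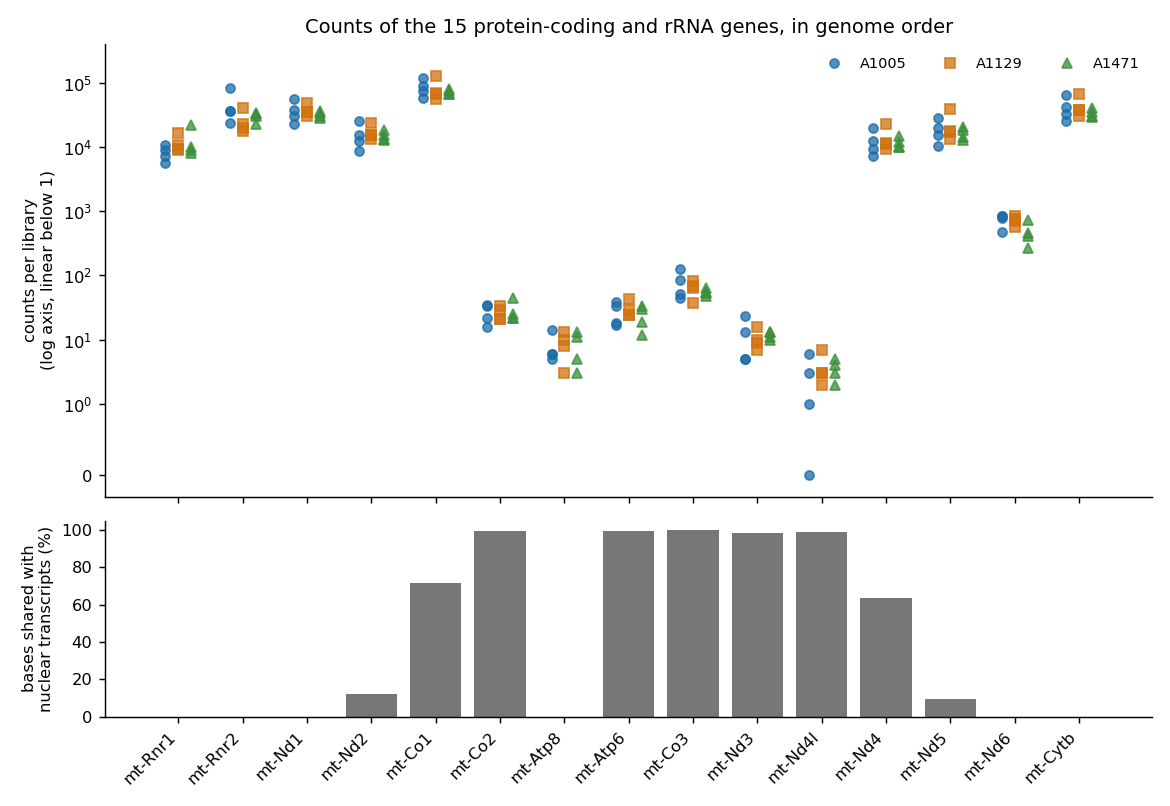
Counts per library of the 15 protein-coding and rRNA genes in genome order (upper panel, log axis that is linear below 1, 4 points per cell line) and the percent of each gene's bases in runs of at least 75 bases identical to a nuclear transcript (lower panel). The 6 genes from mt-Co2 to mt-Nd4l sit between 0 and 126 counts, and 5 of them are 98.3% to 99.9% shared.

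Levels were compared between genes per kilobase of gene, as TMM-scaled CPM per kilobase in DMSO. mt-Co1 was highest at 2740 ± 302 (SD, n = 3), then mt-Nd1 at 2035 ± 183 and mt-Cytb at 1751 ± 31.2. The ranges of mt-Co1 (2391 to 2930) and mt-Nd1 (1832 to 2188) did not overlap, nor did those of mt-Nd1 and mt-Cytb (1721 to 1783). mt-Rnr2 followed at 957 ± 202 and overlapped with mt-Nd2 at 793 ± 122. mt-Rnr1, the small-subunit rRNA, stood at 560 ± 84.9, mt-Nd5 at 470.5 ± 20.0 and mt-Nd4 at 452 ± 51.8, and these neighbours overlapped in range. mt-Nd6, the protein-coding gene of the light strand, was at 73.6 ± 14.5, below every heavy-strand gene that was well counted. The shared bases of mt-Co1 and mt-Nd4 count in their lengths.

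The summed share of all counts on protein-coding mitochondrial genes was lowest in DMSO and highest in the combination in every line. It was 1.01%, 1.03% and 1.09% in the DMSO libraries of A1005, A1129 and A1471, and 1.15%, 1.24% and 1.2% with Crizotinib. With PD173074 it was 1.29%, 1.32% and 1.36%, and with the combination 1.76%, 2.15% and 1.51%. The 4 groups of 3 libraries did not overlap and stood in the order DMSO, Crizotinib, PD173074, combination. Relative to its own line in DMSO, the share was 1.15 ± 0.0537 times as high with Crizotinib, 1.27 ± 0.0184 with PD173074 and 1.74 ± 0.349 with the combination (SD, n = 3). Each of these shares rests on 131862 to 328652 counts, and its 95% Wilson interval extended at most 0.00726 percentage points to either side. No test was made on summed shares.

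The rRNA share was also above DMSO within every line under each treatment, but the PD173074 library of A1129 lay inside the DMSO range. The DMSO libraries held 0.221%, 0.181% and 0.206% in A1005, A1129 and A1471, against 0.291%, 0.225% and 0.276% with Crizotinib and 0.267%, 0.210% and 0.300% with PD173074. The combination libraries held 0.519%, 0.374% and 0.422%, above every other library. Within lines the rRNA share was 1.299 ± 0.0495 times DMSO with Crizotinib, 1.28 ± 0.158 with PD173074 and 2.15 ± 0.166 with the combination. These are low shares for rRNA, and whether the library preparation selected or removed any RNA class is not given in the sources used here.

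The tRNA genes held 48 to 144 counts per library in all, 0.000367% to 0.000811% of the total. In A1471 the combination library had the lowest tRNA share of all 12, at 0.804 times its DMSO library, whereas in A1005 and A1129 it was 1.68 and 1.35 times DMSO. Of the 22 tRNA genes, 10 had no count in any library, where a count of 0 allows up to 3 counts, or 0.169 to 0.230 CPM, and 3 passed the filter on low counts. Intervals and this limit cover counting error only. The 3 tRNA genes that passed were mt-Tw (tRNA for tryptophan, chrM:4950-5016) with 13 to 90 counts, mt-Tt (threonine, chrM:15289-15355) with 6 to 29 and mt-Tp (proline, chrM:15356-15422, light strand) with 10 to 27. Their sequences are given to show how short these targets are, at 67 bases each, with the anticodon in capitals:
mt-Tw: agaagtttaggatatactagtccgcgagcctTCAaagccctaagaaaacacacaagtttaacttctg
mt-Tt: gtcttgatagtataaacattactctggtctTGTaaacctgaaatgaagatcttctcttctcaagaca
mt-Tp: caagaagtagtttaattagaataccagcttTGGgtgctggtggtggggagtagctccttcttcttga

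**Figure D2:**
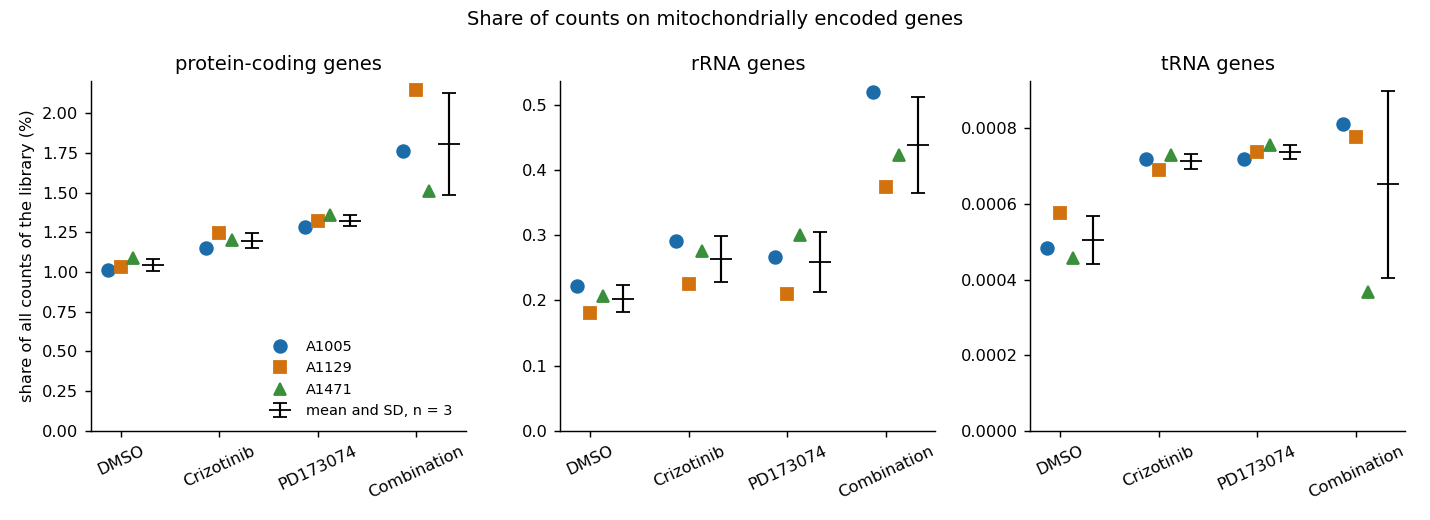
Share of all counts of each library (%) on protein-coding, rRNA and tRNA mitochondrial genes, by treatment, with points for the 3 cell lines and the mean and SD beside them. For protein-coding genes the 3 combination libraries lie between 1.51% and 2.15%, above the DMSO libraries at 1.01% to 1.09%, and the tRNA share of the A1471 combination library (0.000367%) is below its DMSO library.

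The combination was compared with DMSO gene by gene in an edgeR quasi-likelihood fit over all 12 libraries, which tested 13836 genes, 17 of them mitochondrial (12 protein-coding, 2 rRNA and 3 tRNA). At an adjusted p under 0.05, 5 of the 17 rose and 0 fell, where 14.4% of all genes tested were called and 6.1% were called higher. For 8 of the 17 all 3 combination libraries lay above all 3 DMSO libraries, beside 13.8% of all genes, and for 0 all 3 lay below, beside 16.1%. The 5 that rose were mt-Nd4, mt-Nd5, mt-Cytb, mt-Co1 and mt-Rnr2. The 17 fitted log2 fold changes had a median of 0.66, against 0.02 over all genes tested. These genes are read from the same precursors and are not independent of each other. Counts and CPM are relative to the other RNA of a library, so a rise in them does not measure an amount per cell. In bulk libraries more mitochondrial RNA per cell, less of the other RNA and a different mix of cells cannot be told apart.

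A second fit held the line constant by a block term, since the labels tie each library to its line. There 8 of the 17 rose and 0 fell, against 54.8% of all genes called and 28.6% called higher there. The 8 were the well-counted heavy-strand genes, that is, the 5 named above with mt-Rnr1, mt-Nd1 and mt-Nd2. Without the 4 libraries of A1129 or of A1471 the unpaired edgeR fit called 0 of the 17, beside 2.35% and 0.856% of all genes. Without those of A1005 it called 4, beside 14.9% of all genes, and without the A1471 combination library alone 6, beside 7.99%. In the full unpaired fit 8 of the 17 had an unadjusted p under 0.05 (edgeR), beside 28.9% of all genes.

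Among the rRNAs, mt-Rnr2 (chrM:1094-2675) stood at 1809, 1175 and 1559 CPM in the DMSO libraries of A1005, A1129 and A1471 and at 4524, 2558 and 2539 CPM in their combination libraries. All 3 combination libraries lay above all 3 DMSO libraries, with the largest value in A1005. Its log2 fold change was 1.08 ± 0.308 (SE), with an adjusted p of 0.0427 (edgeR). mt-Rnr1 (chrM:70-1024) stood at 444, 600 and 560 CPM in DMSO and at 599.8, 1028 and 1626 CPM in the combination. Its lowest combination library, of A1005, was level with its highest DMSO library, of A1129. The log2 fold change of mt-Rnr1 was 1.02 ± 0.315 and did not pass unpaired (adjusted p 0.0575), but passed with the line as a block (0.95, adjusted p 0.00221).

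The complex I subunits that are well counted on the heavy strand are mt-Nd1, mt-Nd2, mt-Nd4 and mt-Nd5. mt-Nd5 (chrM:11742-13565) had the largest change of the 17 genes. It was at 816, 878 and 880 CPM in DMSO and at 1584, 2452 and 1545 CPM in the combination, a log2 fold change of 1.12 ± 0.182 with an adjusted p of 0.00391 (edgeR). Every combination library was well above every DMSO library. mt-Nd4 (chrM:10167-11544) went from 557, 612 and 698 CPM to 1109, 1405 and 1115 CPM, a log2 fold change of 0.96 ± 0.154 with an adjusted p of 0.00368. Here too the groups did not overlap.

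mt-Nd1 (chrM:2751-3707) and mt-Nd2 (chrM:3914-4951) differed from these in A1471. mt-Nd1 was at 1753, 1997 and 2093 CPM in DMSO and at 3080, 3048 and 2124 CPM in the combination, so that the A1471 pair was nearly level. mt-Nd2 was at 678, 884 and 907 CPM in DMSO and at 1410, 1500 and 979 CPM in the combination, again with a small difference in A1471. Their log2 fold changes of 0.50 ± 0.171 and 0.66 ± 0.210 did not pass unpaired (adjusted p 0.0829 and 0.0649) and passed with the block (adjusted p 0.0183 and 0.00850).

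For complex IV, mt-Co1 (chrM:5328-6872) was at 4477, 3694 and 4527 CPM in DMSO and at 6536, 8010 and 6039 CPM in the combination. No combination library fell within the DMSO range, and the log2 fold change was 0.70 ± 0.156 (adjusted p 0.0172, edgeR). For complex III, mt-Cytb (chrM:14145-15288) was at 1969, 2001 and 2040 CPM in DMSO and at 3614, 4123 and 3047 CPM in the combination. Its log2 fold change was 0.84 ± 0.142 (adjusted p 0.00454). The remaining 2 complex IV subunits and both ATP synthase subunits are among the genes with few counts, and their log2 fold changes of 0.19 to 0.48 had adjusted p of 0.345 or more. mt-Nd3 gave 0.74 ± 0.493 from 5 to 23 counts per library (adjusted p 0.368), and mt-Nd4l did not pass the filter.

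**Figure D3:**
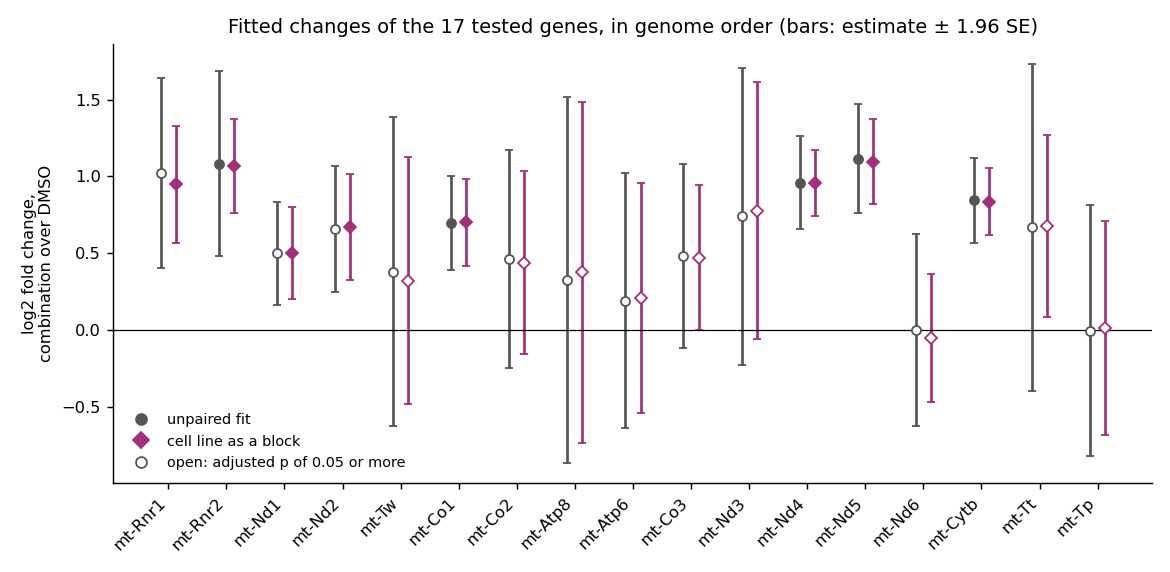
Fitted log2 fold change of the combination over DMSO for the 17 tested mitochondrial genes in genome order, unpaired (circles) and blocked by line (diamonds). Bars show an interval from the SE by a normal approximation, which is narrower than a 95% interval matched to the edgeR test. Filled symbols passed an adjusted p of 0.05: 5 genes unpaired and 8 with the block, while mt-Nd6 lies at 0.00 and -0.05.

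mt-Nd6 (chrM:13552-14070), the complex I subunit read from the light strand, did not follow the heavy-strand genes. It was at 36.6, 46.4 and 31.6 CPM in the DMSO libraries of A1005, A1129 and A1471 and at 46.9, 47.4 and 20.1 CPM in the combination. The groups overlapped, with A1005 higher, A1129 level and A1471 lower than DMSO. The fitted log2 fold change was 0.00 ± 0.318 (adjusted p 0.999, edgeR), with an interval of -0.62 to 0.62 from the SE by a normal approximation. Such an interval is narrower than a 95% interval matched to the edgeR test. A change within that interval could not be told from none in this unpaired fit. With the line as a block the estimate was -0.05 ± 0.212 (adjusted p 0.850, edgeR). Of the 8 heavy-strand genes, mt-Nd4 (0.66 to 1.26) and mt-Nd5 (0.76 to 1.47) had intervals of this kind above 0.62. Because these intervals are too narrow, they do not separate mt-Nd4 from mt-Nd6. A difference between mt-Nd6 and any of these genes was not tested.

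Set against the heavy strand within each library, mt-Nd6 gave 2.93, 3.92 and 2.38 counts per 1000 counts of the 8 well-counted heavy-strand genes in DMSO. With the combination it gave 2.09, 1.97 and 1.06, and every combination library was below every DMSO library. With PD173074 it gave 3.20, 2.65 and 1.76, which overlapped with DMSO and was lower in 2 of 3 lines. With Crizotinib it gave 3.64, 3.88 and 3.54, within the range of DMSO. These ratios do not depend on the scaling between libraries. No test was made on them.

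mt-Nd6 and mt-Nd5 lie on opposite strands and overlap by 14 bases at their 3′ ends. The last 30 bases of each transcript are shown with the overlap in capitals, which is the reverse complement of the other (chrM:13536-13565 for mt-Nd5, chrM:13552-13581 for mt-Nd6):
mt-Nd5: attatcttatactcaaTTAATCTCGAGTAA
mt-Nd6: tttattattatcgagaTTACTCGAGATTAA
Whether the counting used the strand of the reads is not given in the sources used here, so reads from mt-Nd6 and reads antisense to it cannot be told apart.

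The single inhibitors were each compared with the same DMSO libraries, which all 3 treatments share as controls. With PD173074 0 of 17 mitochondrial genes passed unpaired or with the block, and 3 of 17 had an unadjusted p under 0.05 unpaired (mt-Nd4, mt-Nd5 and mt-Cytb), beside 2.22% of all genes. With the block 6 had one, adding mt-Rnr2, mt-Nd2 and mt-Tt, beside 15.7%. At the adjusted threshold 0.0% of all genes passed unpaired and 2.14% with the block (1.62% higher and 0.52% lower). DESeq2 and limma-voom also called 0 of the 17. Among the well-counted genes the largest fitted change was that of mt-Nd5, at 1211, 1262 and 1309 CPM in A1005, A1129 and A1471, above every DMSO library, with a log2 fold change of 0.56 ± 0.181 (adjusted p 1.0 unpaired and 0.0734 with the block). In the same comparison mt-Cytb stood at 2558, 2644 and 2451 CPM and mt-Nd4 at 746, 808 and 853 CPM, again with no overlap with DMSO. Of the 17 tested genes, 6 had all 3 PD173074 libraries above all 3 DMSO libraries, beside 3.35% of all genes, and 1 with few counts, mt-Co2, had all 3 below, beside 3.07%.

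With Crizotinib 0 of 17 passed in either fit, and 0.0% of all genes passed. Unpaired, 0 had an unadjusted p under 0.05, beside 0.13% of all genes. With the block 2 had one (mt-Rnr2 and mt-Nd6), beside 1.86%. DESeq2 and limma-voom called 0 of the 17 as well. mt-Nd6 was higher with Crizotinib than in DMSO in 3 of 3 lines, at 53.7, 55.9 and 52.8 CPM, and the groups did not overlap. Its log2 fold change of 0.50 ± 0.319 had an adjusted p of 1.0. mt-Nd5 and mt-Cytb also had all 3 Crizotinib libraries above all 3 DMSO libraries, by 0.30 ± 0.180 and 0.18 ± 0.141 on the log2 scale, as did mt-Atp6 with few counts. These 4 of 17 stand beside 0.838% of all genes.

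Within each line, 8 of the 8 well-counted heavy-strand genes were above the DMSO library of that line under each of the 3 treatments. In A1005, A1129 and A1471 their median log2 ratio was 0.20, 0.28 and 0.20 with Crizotinib, 0.37, 0.34 and 0.33 with PD173074, and 0.92, 1.08 and 0.63 with the combination. Over all genes tested the same medians were -0.00 to 0.02, and 47.2% to 51.2% of genes were above DMSO in a given library. A gene was above DMSO in 3 of 3 lines in 17.9% of all genes with Crizotinib, 24.1% with PD173074 and 34.0% with the combination. Because the DMSO library of each line is the base of all its ratios, the 3 treatments are not independent of each other here. The 8 genes also share their precursors.

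**Figure D4:**
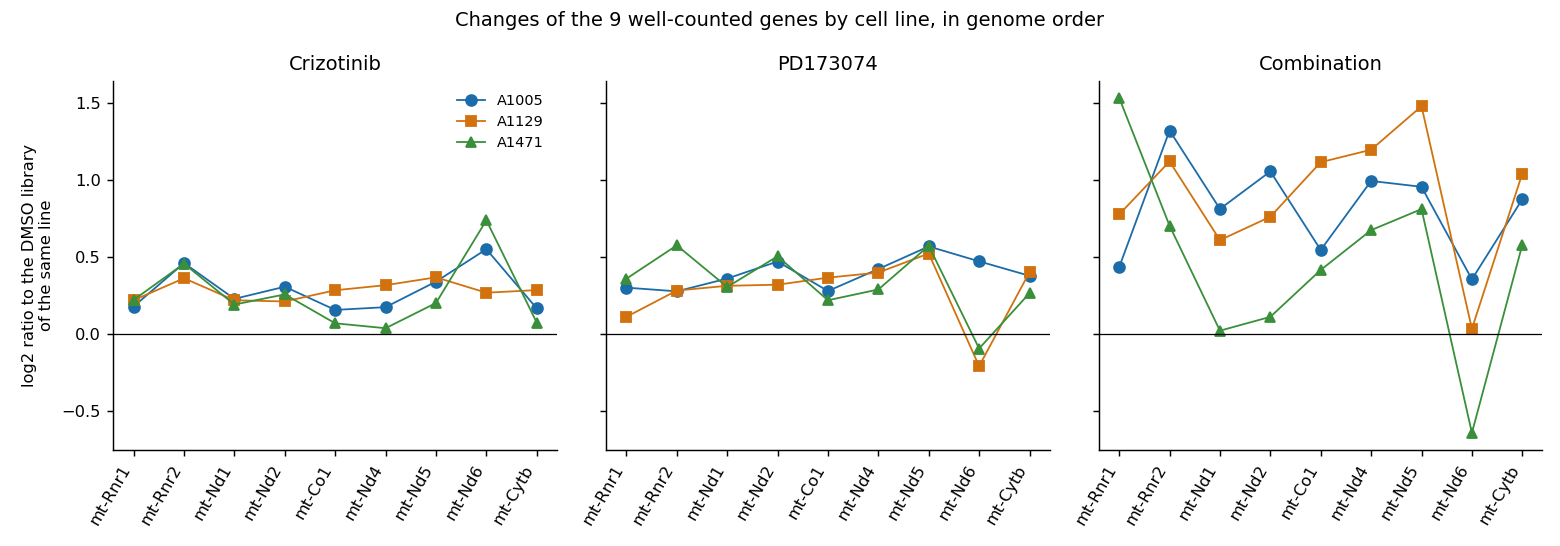
log2 ratio to the DMSO library of the same line for the 9 well-counted genes in genome order, by treatment and cell line. The heavy-strand genes lie above 0 in every panel and line, the values spread most between lines with the combination (0.02 to 1.54), and mt-Nd6 drops to -0.64 in A1471.

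The lines differed most in which genes were raised with the combination. In A1471 the log2 ratio to DMSO ran from 1.54 for mt-Rnr1 and 0.70 for mt-Rnr2 to 0.02 for mt-Nd1 and 0.11 for mt-Nd2, and then from 0.42 for mt-Co1 to 0.68 for mt-Nd4 and 0.81 for mt-Nd5. In A1005 it was lowest for mt-Rnr1 (0.43) and highest for mt-Rnr2 (1.32). In A1129 it was highest for mt-Nd5 (1.48) and lowest for mt-Nd1 (0.61). With the single inhibitors the 8 heavy-strand ratios stayed within 0.04 to 0.58 in every line.

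The same differences show in ratios between genes within a library. mt-Rnr2 gave 4.07, 1.959 and 2.78 counts per mt-Rnr1 count in the DMSO libraries of A1005, A1129 and A1471, and 7.54, 2.49 and 1.56 in the combination. A1005 and A1129 were thus higher than DMSO and A1471 lower. mt-Nd5 gave 0.465, 0.440 and 0.421 counts per mt-Nd1 count in DMSO and 0.514, 0.805 and 0.728 in the combination, higher in 3 of 3 lines and with no overlap. With PD173074 alone this ratio was 0.538, 0.509 and 0.506, also above DMSO in 3 of 3 lines with no overlap. In A1005 it was higher with PD173074 than with the combination. mt-Nd1 gave 0.891, 0.998 and 1.03 counts per mt-Cytb count in DMSO and 0.852, 0.739 and 0.697 in the combination, lower in 3 of 3 lines and again with no overlap. With 1 library per line and treatment, a difference between lines in the effect of a treatment was not tested.

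**Figure D5:**
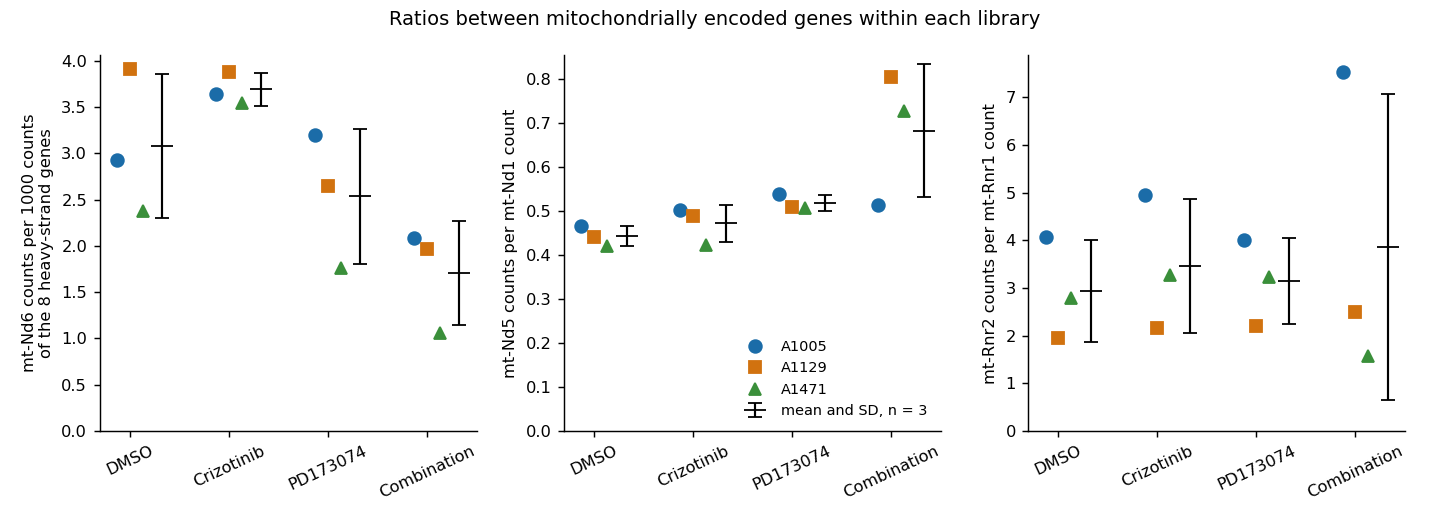
Ratios of counts within each library by treatment: mt-Nd6 per 1000 counts of the 8 heavy-strand genes, mt-Nd5 per mt-Nd1 and mt-Rnr2 per mt-Rnr1, with points for the cell lines and the mean and SD. The mt-Nd6 ratio is 1.06 to 2.09 in the combination against 2.38 to 3.92 in DMSO, and mt-Rnr2 per mt-Rnr1 spans 1.56 to 7.54 in the combination.

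The combination was next compared with each inhibitor alone. Against Crizotinib 3 of 17 mitochondrial genes rose and 0 fell, where 13.2% of all genes were called, 5.4% higher and 7.78% lower. They were mt-Nd4 (0.78 ± 0.154, adjusted p 0.00963), mt-Nd5 (0.81 ± 0.181, adjusted p 0.0172) and mt-Cytb (0.67 ± 0.142, adjusted p 0.0140), all by edgeR. mt-Co1 followed at 0.53 ± 0.156 (adjusted p 0.0501). With the block 6 rose, adding mt-Co1 and both rRNAs, and 1 fell, where 53.4% of all genes were called, 27.4% higher and 26.0% lower. The gene that fell was mt-Nd6 (-0.58, adjusted p 0.0394), whose 3 combination libraries were all below its 3 Crizotinib libraries. Without the A1471 combination library mt-Nd6 was at -0.32 with the block and did not pass (adjusted p 0.154). In the unpaired edgeR fit 0 of the 17 were called without the libraries of A1129 or without those of A1471, beside 2.54% and 0.777% of all genes, and 1 was called without those of A1005, beside 13.5%.

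Against PD173074 0 of 17 passed unpaired, where 4.77% of all genes did (0.838% higher and 3.93% lower). In that fit 8 of 17 had an unadjusted p under 0.05, beside 18.9% of all genes. DESeq2 called 5, beside 11.2% of all genes, and limma-voom 0, beside 4.74%. The nearest was mt-Nd4 at 0.59 ± 0.153 (adjusted p 0.0582). With the block 8 rose, where 39.8% of all genes were called, 19.6% higher and 20.2% lower. These were mt-Rnr1, mt-Rnr2, mt-Co1, mt-Nd4, mt-Nd5 and mt-Cytb with changes of 0.42 to 0.69, and mt-Co2 and mt-Co3 with few counts. mt-Nd1 and mt-Nd2 gave 0.17 and 0.24 with the block and did not pass (adjusted p 0.385 and 0.304).

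Whether the combination differed from the sum of the single inhibitors on the log2 scale was tested as an interaction. None of the 17 genes passed in either fit. Of all genes, 0.918% passed unpaired (0.00723% above and 0.911% below the sum) and 16.2% with the block (5.46% above and 10.7% below). Unpaired, 0 of the 17 had an unadjusted p under 0.05, beside 9.03% of all genes. DESeq2 and limma-voom also called 0. The estimates of the 8 heavy-strand genes were -0.04 to 0.56 with a median of 0.26, and mt-Nd4 came nearest with the block (0.42, adjusted p 0.0882). For mt-Nd6 the estimate was -0.58 ± 0.450 (interval from the SE by a normal approximation -1.46 to 0.31). Without the A1471 combination library 1 of the 17 was called with the block, beside 11.4% of all genes.

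Differences between the lines, with treatment as a term in the fit, were few among mitochondrial genes. A1129 differed from A1005 in 3 of 17 genes where 57.8% of all genes differed (29% higher and 28.9% lower in A1129). A1471 differed from A1005 in 3 where 57.7% did (27.3% higher and 30.3% lower), and from A1129 in 2 where 45.9% did (21.2% higher and 24.7% lower). mt-Rnr1 averaged 523 ± 66.2, 744 ± 194 and 890 ± 495 CPM in A1005, A1129 and A1471 (SD over the 4 treatments). It was higher than in A1005 by 0.47 ± 0.166 in A1129 and by 0.64 ± 0.167 in A1471 on the log2 scale (adjusted p 0.0322 and 0.00744, edgeR). In DMSO alone mt-Rnr1 stood at 444, 600 and 560 CPM in these lines. Its A1471 combination library, at 1626 CPM, was the highest of all. mt-Rnr2 averaged 2754 ± 1213, 1668 ± 610 and 2141 ± 421 CPM, and was lower in A1129 than in A1005 (-0.70 ± 0.134, adjusted p 0.00115) and higher in A1471 than in A1129 (0.41 ± 0.134, adjusted p 0.0281).

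The other genes that differed between lines were mt-Nd6 and mt-Tt. mt-Nd6 averaged 47.0 ± 7.47, 47.4 ± 6.49 and 33.5 ± 13.8 CPM and was lower in A1471 than in A1005 (-0.54 ± 0.185, adjusted p 0.0278) and A1129 (-0.55 ± 0.184, adjusted p 0.0316). The gap varied with treatment. A1471 and A1005 stood at 31.6 and 36.6 CPM in DMSO and at 52.8 and 53.7 CPM with Crizotinib. They stood at 29.5 and 50.8 CPM with PD173074 and at 20.1 and 46.9 CPM with the combination. mt-Tt averaged 0.685 ± 0.186, 1.45 ± 0.278 and 1.48 ± 0.509 CPM and was lower in A1005 than in both other lines, by 1.08 on the log2 scale in each case (adjusted p 0.00478 and 0.00499), on 6 to 29 counts per library. No well-counted heavy-strand messenger RNA differed between lines, with estimates of -0.20 to 0.24 and adjusted p of 0.0644 or more.

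The tested tRNA genes gave no call in any treatment comparison. mt-Tw was at 2.73, 2.50 and 2.56 CPM in DMSO and at 5.003, 4.14 and 0.981 CPM in the combination, so that A1471 lay below DMSO and the other lines above it. mt-Tt gave a log2 fold change of 0.67 ± 0.543 in the combination (adjusted p 0.473) and mt-Tp one of -0.005 ± 0.416 (adjusted p 0.997). With unpaired standard errors of 0.416 to 0.543, changes up to about the size seen for the heavy-strand genes could not be told from none.

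Nuclear genes that act on the mitochondrial genome were described from lists by role. Among 19 genes of mitochondrial DNA transcription and replication, 0 rose and 1 fell in the combination against DMSO, where 6.1% of all genes were called higher and 8.28% lower, and the median log2 fold change was -0.27. With the block 1 rose and 8 fell, where 28.6% of all genes were called higher and 26.2% lower. The gene that fell unpaired was Tfam, the factor that packages mitochondrial DNA and starts its transcription. Tfam was at 57.9, 46.8 and 61.7 CPM in the DMSO libraries of A1005, A1129 and A1471 and at 39.6, 25.7 and 27.5 CPM in the combination, without overlap (log2 fold change -0.84 ± 0.195, adjusted p 0.0199, edgeR). Polrmt, the mitochondrial RNA polymerase, was at 24.7 ± 1.23 CPM in DMSO and 23.7 ± 2.80 in the combination (-0.06 ± 0.165, adjusted p 0.873). Tfb2m, its initiation partner, was at 18.8 ± 1.18 and 18.0 ± 3.41 CPM (-0.06 ± 0.183, adjusted p 0.871).

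Of 33 genes of mitochondrial RNA processing and stability 0 rose and 3 fell, beside 6.1% higher and 8.28% lower over all genes, with a median of -0.40. With the block 1 rose and 20 fell, beside 28.6% higher and 26.2% lower. The 3 that fell unpaired were Tbrg4 (-0.99 ± 0.254, adjusted p 0.0293), Pnpt1, a subunit of the RNA-degrading complex of mitochondria (-0.82 ± 0.155, adjusted p 0.00783), and Trnt1, which adds the CCA end to tRNAs (-0.60 ± 0.175, adjusted p 0.0468). Lrpprc and Slirp, partners that bind and stabilise mitochondrial messenger RNAs, gave -0.35 ± 0.231 and -0.04 ± 0.294 and did not pass unpaired. In A1005, A1129 and A1471 the log2 ratio to DMSO was 0.01, -0.34 and -0.63 for Lrpprc. For Slirp it was 0.35, -0.82 and 0.07. With the block Lrpprc was called lower (-0.32, adjusted p 0.0403), although A1005 was level. Of 19 genes for aminoacyl-tRNA synthetases that charge mitochondrial tRNAs, 0 rose and 2 fell, beside 6.1% higher and 8.28% lower over all genes. With the block 2 rose and 7 fell, beside 28.6% higher and 26.2% lower. Among those that fell was Gars (-0.999 ± 0.234, adjusted p 0.0206), which also serves the cytosol. None of the 11 tested regulators of mitochondrial biogenesis passed unpaired in the combination against DMSO, beside 14.4% of all genes. With the block 7 of them fell, beside 26.2% of all genes lower. Ppargc1a had 0 to 11 counts per library and was not tested.

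Among 18 genes for proteins that are abundant in mitochondria, 0 rose and 8 fell in RNA, beside 8.28% of all genes lower. Their median was -0.57 on the log2 scale, and 17 fell with the block, beside 26.2%. Protein levels were not measured in these libraries. Of the 8 called unpaired, the 4 with the largest falls were the genes for the outer membrane import pore, Tomm40 (-1.40 ± 0.231, adjusted p 0.00414), the matrix chaperone, Hspd1 (-1.34 ± 0.186, adjusted p 0.00184), cytochrome c, Cycs (-1.17 ± 0.179, adjusted p 0.00300), and the Hspd1 partner, Hspe1 (-0.76 ± 0.170, adjusted p 0.0167). Nuclear-encoded core subunits, which assemble with the mitochondrially encoded ones, had a median of -0.15 over 27 genes. Of these, 1 rose and 1 fell, beside 6.1% higher and 8.28% lower over all genes. The gene that fell was the ATP synthase subunit Atp5b (-0.48 ± 0.128, adjusted p 0.0330). With the block 3 rose and 9 fell, beside 28.6% higher and 26.2% lower. Whether these lists and the mitochondrially encoded genes differ was not tested.

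Another RNA that moved in the direction of the heavy-strand genes was Malat1, a nuclear-retained RNA. It was at 344, 487 and 180 CPM in DMSO and at 572, 1165 and 640 CPM in the combination in A1005, A1129 and A1471, and also higher than DMSO in 3 of 3 lines with Crizotinib. Its log2 fold change in the combination was 1.23 ± 0.407 (adjusted p 0.0730 unpaired and 0.000262 with the block). With the block 28.6% of all genes were called higher in this comparison. Neat1, likewise nuclear, was at 195, 308 and 78.9 CPM in DMSO and at 201, 260 and 191 CPM in the combination. RNA quality per library is not among the values used here, and its part in these differences was not tested.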

How the data were processed

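Gene-level read counts of 12 libraries were analysed as deposited. The authors made these counts from NextSeq reads aligned to mm10. The submitters' processing notes name bcl2fastq, STAR and HTSeq. The counting mode, strandedness, library preparation and read length are not given in the sources used here. Libraries held 13031492 to 17750476 counts.

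The members and gene lists were chosen with earlier results of these data known. Genes passing filterByExpr (minimum count 10, minimum total 15; 13836 genes) were tested with edgeR 4.0.16 (R 4.3.3), using TMM factors, a quasi-likelihood fit to all 12 libraries without a block, and Benjamini-Hochberg adjustment at 0.05. Log2 CPM used a prior count of 2. The labels name the cell line behind each replicate number, so the numbers pair libraries: deviations from treatment means correlated at 0.871 on average within lines (lowest 0.766, 18 pairs). Alternatives included this block, DESeq2 1.42.0, limma-voom (limma 3.58.1) and other filters and scalings. The fits were tested on simulated data. Where nothing shows that the libraries of a line came from separate cultures, p-values measure the spread between these samples. Identical stretches and sequences came from GENCODE vM21 transcripts. Named genes were all protein-coding and rRNA members, tRNA members that passed the filter, and from each list up to 4 genes per direction that passed, by size of change, with key regulators named whatever their values. Some genes that met this rule are not reported here.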

Additional observations from a re-analysis of the deposited data

Results flagged for a closer look

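mt-Nd6 was picked out because, among the 9 well-counted genes, its lines moved in opposite directions under the same treatment. Some genes with few counts also split between lines. With the combination mt-Tw was at 0.84, 0.70 and -1.27 in A1005, A1129 and A1471, as log2 ratios to DMSO. With the combination the log2 ratio of mt-Nd6 to DMSO was above 0 in A1005 (0.36) and A1129 (0.03) and below 0 in A1471 (-0.64). The highest and lowest line were 0.999 apart. With PD173074 the ratio of mt-Nd6 was above 0 in A1005 (0.47) and below 0 in both A1129 (-0.21) and A1471 (-0.10), which is 0.682 from highest to lowest. The difference between lines was not tested, since each line had 1 library per treatment.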

How the results depend on the processing

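With 3 libraries per treatment the number of mitochondrial genes called depended on the fit. Combination versus DMSO gave 5 calls, against 8 with the replicate block, 8 with the replicate block and scaling without mitochondrial genes, 8 with DESeq2, 2 with no filter, 0 with only the groups compared and 0 when a fold limit of 1.5 on the log2 scale was added. Combination versus Crizotinib gave 3, against 7, 7, 5, 0, 0 and 0 under the same settings. Over all genes the share called moved too, for combination versus DMSO from 14.4% to 54.8% with the replicate block, 21.9% with DESeq2, 4.07% with no filter and 4.62% with only the groups compared, and for combination versus Crizotinib from 13.2% to 53.4%, 21.2%, 4.02% and 4.79%. Combination versus PD173074 gave 0, against 8 with the replicate block under either scaling, 5 with DESeq2, 1 with DESeq2 size factors and 1 with at least 10 counts in every library, where 4.77% of all genes were called at first and 39.8%, 11.2%, 4.74% and 6.88% under these settings. Leaving out each line in turn gave 0 to 4 calls against DMSO, 0 to 1 against Crizotinib and 0 against PD173074. Without the A1471 combination library, an alternative chosen after seeing the data, these counts were 6, 3 and 0 unpaired and 10, 8 and 10 with the replicate block (48.7%, 47.8% and 30.5% of all genes), and 1 gene departed from additivity with the block. The 3 contrasts between lines gave 3, 3 and 2 calls, and 0 each at a fold limit of 1.5. The replicate block changed no other call of a mitochondrial gene. Over 1822 fitted values of single mitochondrial genes under these alternatives, 0 reversed a called direction, 36 lost a call and 74 gained one. For the named nuclear genes the block is the alternative given. The causes were not tested. Counts of 0 to 126 limit 6 protein-coding genes and all tRNAs.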
